A study of Homo sapiens and Mus musculus with 12 samples.

Results

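The nuclear genes of oxidative phosphorylation were followed in 2 comparisons of a lowered ZNF280C, a zinc finger protein gene. Genes were taken by name: those of complex I (NDUFA, NDUFB, NDUFC, NDUFS and NDUFV followed by a digit), complex II (SDHA to SDHD), complex III (UQCR), complex IV (COX4 to COX8) and complex V (ATP5), without pseudogenes. This gave 82 of the 17383 genes in the mouse colon table and 80 of the 15590 genes in the human RKO table, where 14 pseudogene names were dropped. Colon tissue came from Zfp280c knock-out C57BL/6J mice and from wild-type C57BL/6J mice, all 12 weeks old, with 3 libraries per genotype. RKO is a human colon cancer cell line. All RKO cells stably carried an shRNA targeting ZNF280C whose promoter is induced by tetracycline, and they received 1 ug/ml doxycycline for 72 h or none, with 3 libraries each. Doxycycline is also an antibiotic known to inhibit mitochondrial protein synthesis. No library here received it without the shRNA, so drug and shRNA cannot be told apart. Whether the RKO line is a single clone, how the mouse allele was made, and the sex of the mice and the part of the colon taken are not given in the sources used here.

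The respiratory chain of the inner mitochondrial membrane passes electrons from NADH (complex I) and succinate (complex II) through ubiquinone, complex III and cytochrome c to oxygen at complex IV. Complexes I, III and IV pump protons, and the ATP synthase, complex V, uses the proton gradient to make ATP. Most subunits are encoded in the nucleus and imported, and a few hydrophobic core subunits are encoded by mitochondrial DNA. In the colon, absorptive epithelial cells are known to rely on mitochondrial oxidation of bacterial butyrate.

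The targeted gene was lower in both settings. In knock-out colon Zfp280c was at 0.09, 0.09 and 0.22 FPKM (fragments per length of transcript and library size), against 2.48, 2.25 and 3.17 FPKM in wild-type colon (5.06% of the wild-type mean; log2 fold change -1.67 ± 0.14, SE; adjusted p = 0.123, limma). ZNF280C signal was 123, 99.6 and 79.1 with doxycycline and 192, 172 and 227 without (51.0%; -0.98 ± 0.15; adjusted p = 0.0276, limma), and both genes gave an exact two-sided permutation p of 0.1, the smallest that 3 against 3 allows. The ZNF280C call was lost in limma when any library other than doxycycline replicate 1 was left out (adjusted p = 0.0621 to 0.0922), or with libraries that share exactly equal values taken as a block (adjusted p = 0.0769). Summed FPKM per colon library lay between 491900 and 507206, and summed signal per RKO library between 9050161 and 9195211; read depth is unknown for both tables. Of the epithelial markers, all 8 were present in colon, with Krt8 between 3508 and 4304 FPKM, and 5 of 8 were listed in RKO. HOX genes, which mark position along the gut, split the wild-type colon libraries. A position score (mean log2 of 3 proximal HOX genes minus that of 5 distal ones) was 2.68, 1.28 and 1.78 in the knock-outs and -2.43, 1.88 and -4.42 in wild-type replicates 1, 2 and 3, so wild-type replicate 2 stood with the knock-outs. Nothing in the labels says whether libraries of a group came from separate cultures or animals, so p-values measure only the spread between these libraries.

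In knock-out colon, most subunit genes had slightly lower FPKM than in wild-type colon. Complex I made up the largest group of them, as it did of the genes tested (35 of 78). Of the 82 genes, 78 had a mean of at least 1 FPKM and were tested. Of the 78, 73 had a negative log2 fold change, against 55.4% of all genes tested. The median of the 78 was -0.15 on the log2(FPKM + 1) scale, against -0.02 over all 11366 genes tested. In 39 of the 78 genes, or 50.0%, all 3 knock-out libraries lay below all 3 wild-type ones, against 9.79% of all genes, and in 0 of them did the knock-outs lie above, against 7.13%. With all 6 libraries, 0 members passed in limma (adjusted p under 0.05 over all genes; lowest adjusted p = 0.396), as did 0% of all genes in either direction. At an unadjusted p under 0.05, 23 members were lower and 0 higher, against 6.48% and 6.02% of all genes. Members of one pathway vary together and are no replicates of the genotype.

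**Figure D1:**
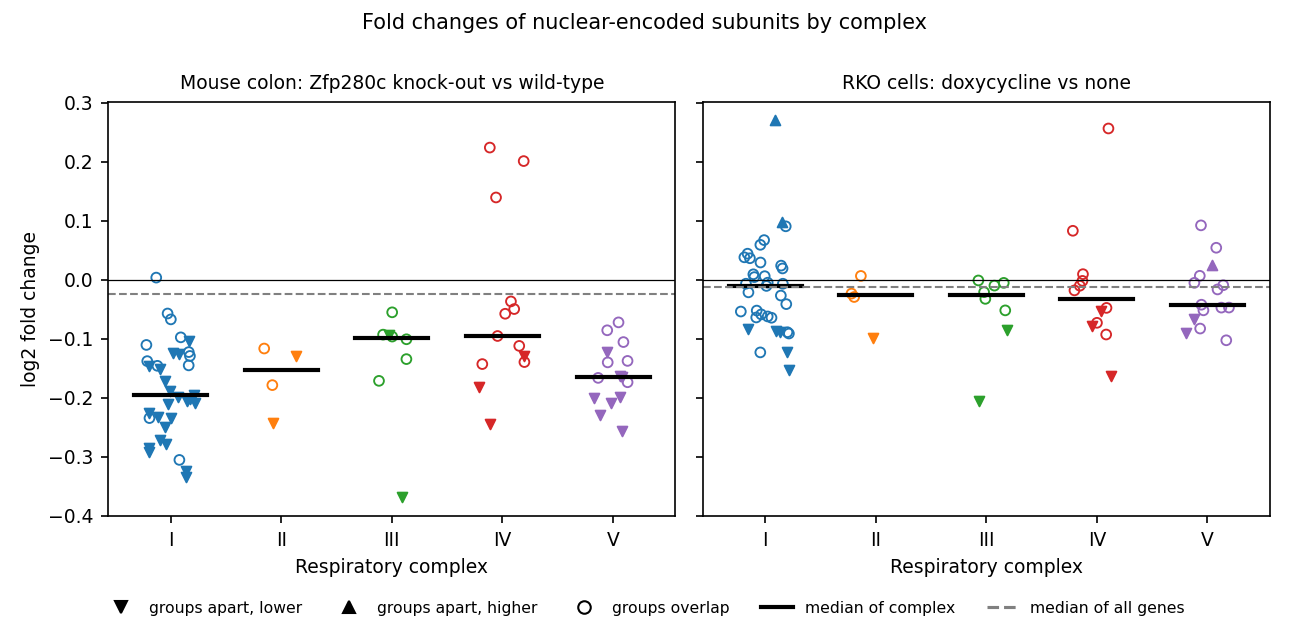
Log2 fold changes (vertical axis) of the subunit genes of complexes I to V (horizontal axis) in mouse colon, knock-out over wild-type (left, 75 genes tested), and in RKO cells, doxycycline over none (right, 74 genes). Filled triangles are genes whose groups do not overlap, open circles genes whose groups overlap, black bars the median of a complex and the dashed line the median of all genes tested. The colon medians lie between -0.19 and -0.10, and the RKO medians between -0.04 and -0.01.

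The shift was seen in every knock-out library, and its size against wild-type rested in part on wild-type replicate 2. Relative to the wild-type mean, the mean log2 value of the 78 members was -0.138, -0.144 and -0.167 in knock-out replicates 1, 2 and 3 and 0.0559, -0.0542 and -0.00162 in wild-type replicates 1, 2 and 3. All 3 knock-outs were below all 3 wild-types, with wild-type replicate 2 the nearest to them. Complex IV taken alone overlapped between genotypes. Its mean was -0.0551, 0.0177 and -0.106 in the knock-outs and 0.0772, 0.0752 and -0.152 in wild-type replicates 1, 2 and 3. Over all genes tested, the same mean was 0.0342, -0.0756 and 0.0467 in the knock-outs and -0.0182, 0.0386 and -0.0204 in the wild-types, so the overall level did not separate the genotypes. The members made up 4.56%, 4.69% and 4.52% of summed FPKM in the knock-outs and 5.17%, 4.74% and 4.97% in the wild-types. In bulk tissue, fewer cells of a type and less RNA per cell cannot be told apart.

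**Figure D2:**
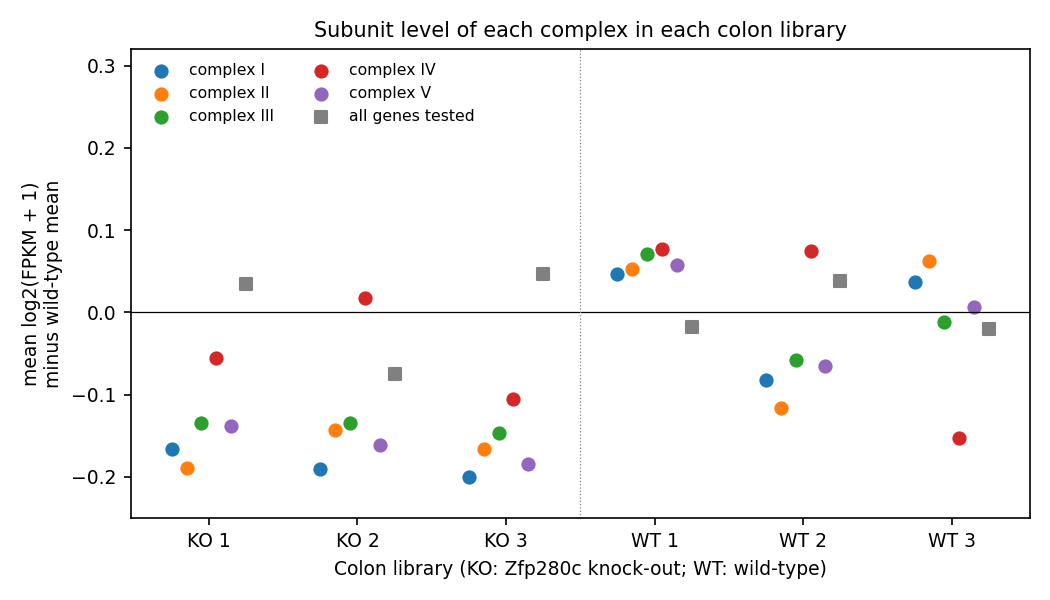
Mean log2(FPKM + 1) of the tested genes of each complex minus the wild-type mean (vertical axis) in each of the 6 colon libraries (horizontal axis), with all genes tested as grey squares. Complexes I, II, III and V lie between -0.20 and -0.13 in the 3 knock-outs, and wild-type replicate 2 has the lowest wild-type value in each of these 4 complexes. Complex IV overlaps between genotypes, with its lowest value, -0.15, in wild-type replicate 3.

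Complex I, the NADH dehydrogenase, had 35 genes tested, of which 34 were negative (median -0.19). All knock-out libraries lay below all wild-type ones in 23 of them, and 16 had an unadjusted p under 0.05. Ndufb10, an accessory subunit of the membrane arm, was at 177, 167 and 175 FPKM in knock-out colon, against 213, 209 and 233 FPKM in wild-type colon. The groups were well apart, and wild-type replicate 2 was only slightly below replicate 1. The log2 fold change was -0.33 ± 0.08 (SE), with 79.2% of the wild-type level and an adjusted p of 0.396 in limma. Ndufb6, another membrane arm subunit, was at 97.3, 85.8 and 90.8 FPKM in knock-out colon and 113, 106 and 125 FPKM in wild-type colon, -0.32 ± 0.09 on the log2 scale (adjusted p = 0.396, limma). Its groups did not overlap either.

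The core subunits of complex I carry electrons from NADH to ubiquinone. All 7 nuclear core genes had negative log2 fold changes, with a median of -0.12 and a range of -0.23 to -0.10, and in 4 of them the groups did not overlap. Ndufs3, a core subunit of the peripheral arm, was at 123, 126 and 122 FPKM in knock-out colon and at 142, 146 and 150 FPKM in wild-type colon (log2 fold change -0.23). Ndufs1, which holds iron-sulphur clusters, was at 65.3, 68.7 and 69.6 FPKM in knock-out colon and at 78.4, 63.3 and 79.5 FPKM in wild-type colon. For Ndufs1 wild-type replicate 2 was the lowest of all 6 libraries and the groups overlapped. A larger gap of this kind was seen for Ndufb4, named after its values were seen, at 204, 208 and 196 FPKM in knock-out colon and 273, 192 and 300 FPKM in wild-type colon. The only complex I gene with a positive value was Ndufb11, at a log2 fold change of 0.0038.

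Complex II, succinate dehydrogenase, was negative for all 4 genes (median -0.15). Sdhc, a membrane anchor, was at 153, 169 and 164 FPKM in knock-out colon and 192, 184 and 199 FPKM in wild-type colon, or -0.24 ± 0.08 as log2 fold change (adjusted p = 0.396, limma). Sdhb, the iron-sulphur subunit, was at 226, 225 and 216 FPKM in knock-out colon and 253, 233 and 244 FPKM in wild-type colon (-0.13 ± 0.07). Both were lower in every knock-out than in any wild-type library. For the flavoprotein gene Sdha (-0.12) and the second anchor gene Sdhd (-0.18), wild-type replicate 2 lay among the knock-outs.

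Complex III, the cytochrome bc1 complex, was negative for all 8 genes (median -0.10), with the groups apart in 2. Uqcr10, a small subunit, was at 425, 351 and 405 FPKM in knock-out colon and 543, 460 and 522 FPKM in wild-type colon. At -0.37 ± 0.11 (adjusted p = 0.396, limma) its log2 fold change was the most negative of all 78 members tested. Uqcrc1, a core protein, was at 183, 172 and 188 FPKM in knock-out colon and at 188, 199 and 210 FPKM in wild-type colon (-0.13 ± 0.08). In Uqcrc1 knock-out replicate 3 reached wild-type replicate 1. The 3 core genes that the naming rule takes in, Uqcrc1, Uqcrc2 and Uqcrfs1, had a median of -0.10 and overlapping groups in each case.

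Complex IV, cytochrome c oxidase, was mixed: 10 of 13 genes tested were negative (median -0.10), and the 3 members with the most positive values of the whole set were here. Cox7a1, the isoform known from heart and skeletal muscle, was at 65.8, 70.2 and 74.6 FPKM in knock-out colon and 88.3, 81.3 and 80.3 FPKM in wild-type colon, a difference of -0.24 ± 0.08 on the log2 scale (adjusted p = 0.396, limma). Cox8a was at 989, 1048 and 1039 FPKM in knock-out colon and 1210, 1136 and 1143 FPKM in wild-type colon (-0.18 ± 0.08). In both genes the groups did not overlap.

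The positive members showed a different library pattern. Cox4i1, a regulatory subunit, was at 946, 962 and 903 FPKM in knock-out colon and 794, 977 and 791 FPKM in wild-type colon (log2 fold change 0.14 ± 0.11). Ndufa4, first described in complex I and later placed in complex IV, was at 361, 310 and 310 FPKM in knock-out colon and 307, 348 and 213 FPKM in wild-type colon (0.20 ± 0.19). Cox6b2, known from testis, was at 1.70, 1.84 and 1.56 FPKM in knock-out colon and 1.32, 3.28 and 0.24 FPKM in wild-type colon (0.22 ± 0.42). In all 3 genes wild-type replicate 2 was the highest wild-type library and the groups overlapped. With the position score as a covariate all 3 turned negative, to -0.04, -0.17 and -0.69.

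Complex V was negative for all 15 genes (median -0.17), and the groups were apart in 8. Atp5g3, one of 3 genes for the membrane c ring, was at 619, 588 and 608 FPKM in knock-out colon and 717, 698 and 753 FPKM in wild-type colon, a difference of -0.26 ± 0.08 on the log2 scale (adjusted p = 0.396, limma). Atp5e, the epsilon subunit of the catalytic F1 part, was at 314, 310 and 297 FPKM in knock-out colon and 347, 349 and 369 FPKM in wild-type colon (-0.21 ± 0.07). Both genes had every knock-out below every wild-type library. The 5 genes of the F1 part were all negative (median -0.14), as were the 3 c ring genes (median -0.17). Atp5b, the catalytic beta subunit, was at 920, 888 and 970 FPKM in knock-out colon and at 1046, 927 and 1094 FPKM in wild-type colon, and its groups overlapped through wild-type replicate 2.

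Among the colon fits run, only that without wild-type replicate 2 gave calls among the members. There the position scores were 2.68, 1.28 and 1.78 in the knock-outs and -2.43 and -4.42 in the 2 remaining wild-types, so genotype and colon position cannot be told apart. In that fit 11 of the 78 members passed as lower and 0 as higher, against 7.19% and 9.21% of 11344 genes, and the median was -0.21. Of the 11, 9 were complex I accessory genes: Ndufb4 (-0.50, adjusted p = 0.0119, limma), Ndufb5, Ndufa12, Ndufa5, Ndufb10, Ndufb3, Ndufb6, Ndufb9 and Ndufb2. The others were Uqcr10 (-0.44) and Sdhd (-0.28, adjusted p = 0.0491, limma). No gene of complex IV or V passed in that fit, where the lowest adjusted p was 0.104 in complex IV and 0.0710 in complex V (limma). Leaving out any other single library gave 0 called members and medians of -0.17 to -0.12. Whether the complexes differ from each other was not tested.

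With the position score as a covariate 72 of 78 members had negative log2 fold changes, with a median of -0.10, against 60.8% negative and a median of -0.04 over all genes. The sign turned in 9 members. Ndufb4, which had the lowest adjusted p without wild-type replicate 2, turned positive (0.050), as did Ndufs1 (0.085), Sdha (0.023), Cox6c (0.026) and Atp5s (0.14), while Ndufb11 (-0.070) turned negative with Cox4i1, Ndufa4 and Cox6b2. In limma 0 members passed (lowest adjusted p = 0.989), and 6 had an unadjusted p under 0.05, against 3.75% of all genes. The 6 were Cox6b2 (-0.69), Ndufb10 (-0.27), Atp5g1 (-0.30), Ndufa8 (-0.26), Ndufc1 (-0.22) and Ndufs3 (-0.22), all lower. Medians were -0.10 in complex I, -0.05 in II, -0.09 in III, -0.11 in IV and -0.11 in V. Since wild-type replicates 1 and 3 are the only libraries with a negative score, this fit rests largely on wild-type replicate 2.

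Summed markers of some other cell types were higher in every knock-out than in wild-type replicates 1 and 3. Of the 6 white adipocyte markers, 4 were tested and all 4 had an unadjusted p under 0.05 in the higher direction, against 6.02% of all genes. After adjustment 0% of all genes passed in that fit. The 6 white adipocyte markers summed to 64.8, 44.2 and 83.6 FPKM in the knock-outs and 9.05, 32.4 and 6.49 FPKM in the wild-types. Lep was listed at 0 in wild-type replicates 1 and 3. Of 4 pericyte markers tested, 3 had an unadjusted p under 0.05 and were higher, against 6.02% of all genes. Summed pericyte markers were 41.1, 36.2 and 31.9 FPKM in the knock-outs and 14.6, 32.5 and 11.6 FPKM in the wild-types. Most of this sum was Rgs5, at 33.6, 29.4 and 25.25 FPKM in the knock-outs and 9.65, 26.6 and 7.02 FPKM in the wild-types. Pdgfrb overlapped, at 2.02, 1.83 and 2.43 FPKM in the knock-outs and 2.27, 2.78 and 2.14 FPKM in the wild-types. In both lists wild-type replicate 2 was the wild-type library nearest to the knock-outs. Its pericyte sum was above that of knock-out replicate 3.

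Of 6 smooth muscle markers and 8 epithelial markers, 1 each had an unadjusted p under 0.05 and was higher, against 6.02% of all genes. Smooth muscle markers summed to 610, 739 and 461 FPKM in the knock-outs and 355, 577 and 403 FPKM in the wild-types. Epithelial markers summed to 10692, 11571 and 10561 FPKM in the knock-outs and to 9518, 11428 and 9050 FPKM in the wild-types. The epithelial sum was higher in each knock-out than in wild-type replicates 1 and 3, but not every member followed. Cdh1 was at 262, 288 and 262 FPKM in the knock-outs and 319, 263 and 313 FPKM in the wild-types. The groups overlapped for Epcam and Krt19. The brown fat marker Ucp1 was listed at 0 in 5 of 6 libraries and at 0.03 FPKM in knock-out replicate 3. Summed skeletal muscle markers were 13.4, 12.3 and 10.7 FPKM in the knock-outs and 14.3, 15.5 and 8.66 FPKM in the wild-types. Genes tested were 1 brown fat, 3 skeletal muscle, 4 immune, 1 endothelial, 5 fibroblast and 1 enteric neuron and glia gene. Of these, 1 fibroblast gene had an unadjusted p under 0.05 and was higher, against 6.02% of all genes. Summed endothelial markers were 2.09, 1.49 and 2.49 FPKM in the knock-outs and 4.19, 2.35 and 4.15 FPKM in the wild-types. Summed enteric neuron and glia markers were 6.22, 4.66 and 4.61 FPKM in the knock-outs and 3.42, 5.79 and 2.78 FPKM in the wild-types. For both sums wild-type replicate 2 lay within the knock-out range. The part of these cell types in the lower subunit levels was not tested.

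Because FPKM are given per length, levels can be compared between colon genes. The median level of a gene was lowest in complex I, at 133 FPKM in knock-out and 152 FPKM in wild-type colon, and highest in complex IV, at 679 FPKM in knock-out and 696 FPKM in wild-type colon. Complex II stood at 201 FPKM in knock-out and 220 FPKM in wild-type colon, complex III at 285 FPKM in knock-out and 305 FPKM in wild-type colon, and complex V at 370 FPKM in knock-out and 425 FPKM in wild-type colon. Cox8a had the highest level of the set, with a mean of 1025 ± 31.7 FPKM in knock-out and 1163 ± 41.2 FPKM in wild-type colon (SD, n = 3 each). Within complex I the range ran from Ndufa11, at 30.7 FPKM in knock-out and 35.6 FPKM in wild-type colon, to Ndufa6, at 378 FPKM in knock-out and 416 FPKM in wild-type colon. The strongest and the weakest complex I gene both had a lower mean in the knock-outs.

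**Figure D3:**
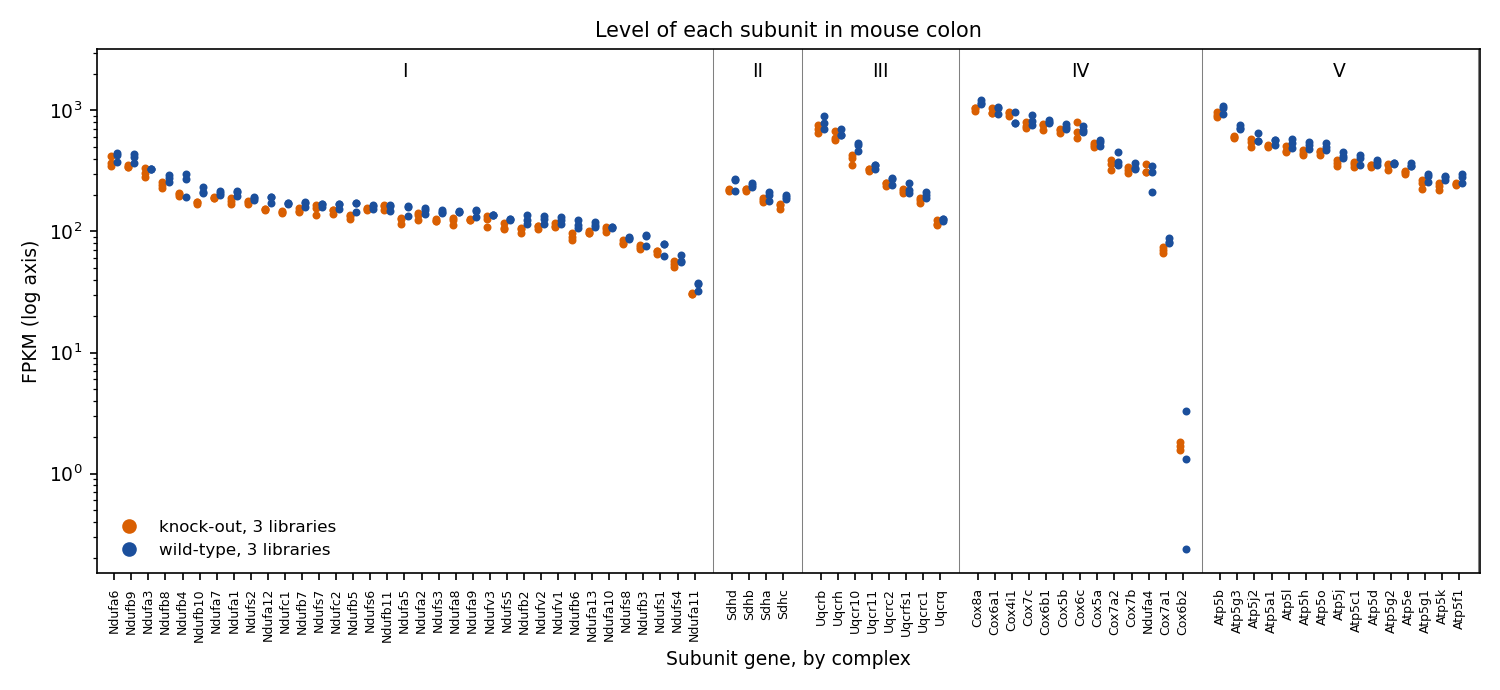
FPKM (vertical log axis) of each tested subunit gene in the 3 knock-out (orange) and 3 wild-type (blue) colon libraries, with genes ordered by level within complexes I to V along the horizontal axis. Cox8a lies highest, near 1025 FPKM in knock-out and 1163 FPKM in wild-type colon, and Cox6b2 lies near 1.70 and 1.61 FPKM. Blue points tend to stand above orange ones, without overlap in 38 of 75 genes. The knock-out mean is the higher in Cox4i1, Ndufa4, Cox6b2 and, by little, Ndufb11.

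Isoforms restricted to other tissues were at or near 0 in colon, apart from Cox7a1. Cox7a1 made up 15.3%, 15.4% and 18.9% of the sum of Cox7a1 and its common partner Cox7a2 in the knock-outs and 16.3%, 18.7% and 17.6% in the wild-types, so the shares overlapped. The 4 members that did not reach a mean of 1 FPKM were Cox8b, Cox4i2, Ndufa4l2 and Cox6a2. Cox8b, a heart and muscle isoform in the mouse, was at 0.78, 1.09 and 0.92 FPKM in the knock-outs and 0.46, 0.77 and 1.53 FPKM in the wild-types. Cox6a2, also a heart and muscle isoform, was listed at 0 in all 3 knock-outs and at 0.50, 0.17 and 0.91 FPKM in the wild-types. The hypoxia-induced Ndufa4l2 and the lung isoform Cox4i2 reached at most 0.39 and 0.47 FPKM in any library. Of the 3 names that belong to no complex, the supercomplex factor gene Cox7a2l was level (0.0060), Atp5s stood at -0.06 and the assembly gene Atp5sl at -0.32.

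Other colon genes of the pathway, taken from lists of names, gave 0 calls in limma with all 6 libraries. Counts of negative genes in these lists stand beside 55.4% negative over all 11366 genes tested. Of 14 tricarboxylic acid cycle genes 12 were negative (median -0.11), with Idh3a at 77.6 ± 6.15 FPKM in knock-out and 109 ± 22.5 FPKM in wild-type colon (SD, n = 3 each), Mdh2 at -0.19 and citrate synthase, Cs, at -0.44. Assembly genes were negative in 9 of 14 for complex I (Ndufaf3 -0.21, Ndufaf7 -0.27, Ndufaf5 -0.26), 3 of 4 for complex II (Sdhaf4 -0.24) and 5 of 6 for complex III (Uqcc2 -0.16). Of 23 complex IV assembly genes 15 were negative, with Cox20 at 79.7 ± 3.93 FPKM in knock-out and 110 ± 15.8 FPKM in wild-type colon. The copper chaperone gene Cox17 averaged 124 ± 8.07 FPKM in knock-out and 164 ± 24.3 FPKM in wild-type colon, while Cox11 stood at 0.25. Complex V assembly genes had a median of -0.0078 over 3 genes (Tmem70 -0.12, Atpaf1 0.11). Of 18 cytochrome, electron transfer flavoprotein and ubiquinone synthesis genes 8 were negative (Coq7 -0.30, Etfa 0.29). That list holds Cyc1 (-0.16), the cytochrome c1 core subunit of complex III, which the naming rule leaves out.

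Among 4 further subunit and inhibitor genes that the naming rule leaves out, 3 were negative, with the acyl carrier gene Ndufab1 at -0.20 and the ATP synthase inhibitor gene Atpif1 at 0.31. Of 14 regulators of mitochondrial gene expression 10 were negative (median -0.05). Gabpa, a subunit of the ETS factor NRF2, stood at -0.23, Polg2 at -0.12, and the coactivator gene Ppargc1a at 6.01, 5.48 and 8.21 FPKM in the knock-outs against 11.97, 5.71 and 11.94 FPKM in the wild-types. Ppargc1a in wild-type replicate 2 was again within the knock-out range. Without wild-type replicate 2, 7 of these 100 genes passed as lower and 7 as higher, against 7.19% and 9.21% of all genes in that fit. Mouse transcripts of mitochondrial DNA were not analysed here.

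In RKO cells the same genes stayed close to the background of all genes. All 80 had a mean of at least 1 and were tested, and 0 passed in limma in either direction (lowest adjusted p = 0.0747), against 0.385% of 15590 genes called higher, 0.757% called lower and 1.14% called in all. At an unadjusted p under 0.05, 7 were lower and 1 higher, against 10.2% and 6.82% of all genes. The groups were apart with doxycycline below in 13 of 80, or 16.3%, against 13.3% of all genes, and above in 3, or 3.75%, against 8.65%. The median log2 fold change was -0.02, against -0.01 over all genes, and 55 of 80 were negative, or 68.8%, against 55.1%. The negative majority depended on scaling: 44, 41 and 43 of 80 were negative with equal sums, quantile normalization and median centring. The mean log2 value of the 80 genes was 0.0099, -0.0283 and -0.0471 in the libraries with doxycycline and 0.0203, 0.0017 and -0.0220 in those without, relative to the mean without, so the groups overlapped.

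By complex, the RKO medians were -0.01 for complex I (21 of 35 negative), -0.03 for complex II (3 of 4), -0.03 for complex III (8 of 8), -0.03 for complex IV (9 of 12) and -0.04 for complex V (11 of 15). RKO signal is not given per length, so levels are compared only within a gene. UQCRFS1, the Rieske iron-sulphur protein of complex III, was at 379, 353 and 356 signal with doxycycline and 408, 438 and 410 without. Its groups did not overlap, and it had the most negative log2 fold change of the set, -0.21 ± 0.05 (adjusted p = 0.0747, limma). Its pseudogene UQCRFS1P1, which could share reads with it, was at 24.3, 26.4 and 32.7 signal with doxycycline and 24.5, 30.7 and 29.6 without. UQCRB, a small ubiquinone-binding subunit, was at 1669, 1605 and 1662 signal with doxycycline and 1703, 1736 and 1800 without (-0.09).

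COX7B, a structural subunit of complex IV, was at 671, 616 and 604 signal with doxycycline and 702, 709 and 706 without. The untreated libraries were close together and all above the treated ones (-0.16 ± 0.05, adjusted p = 0.112, limma). In complex I, NDUFB5 was at 320, 332 and 298 signal with doxycycline and 342, 347 and 368 without (-0.15 ± 0.05), and NDUFS3 at 406, 420 and 410 with doxycycline and 455, 451 and 439 without (-0.12 ± 0.04). Both had the groups apart. SDHD was at 157, 152 and 155 signal with doxycycline and 161, 171 and 165 without (-0.10), while SDHC overlapped (-0.03). In complex V, ATP5C1, the gamma subunit of the rotor, was at 1584, 1524 and 1528 signal with doxycycline and 1595, 1684 and 1658 without (-0.09), and ATP5F1, a stalk subunit, overlapped (-0.10).

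On the positive side, NDUFA13, a complex I accessory subunit also known as GRIM-19, was at 102, 96.6 and 88.1 signal with doxycycline and 80.3, 81.2 and 75.7 without. All treated libraries lay above all untreated ones, by 0.27 ± 0.08 on the log2 scale (adjusted p = 0.120, limma). NDUFA4L2, a relative of NDUFA4 known to be induced in hypoxia, was at 32.1, 27.0 and 30.1 signal with doxycycline and 27.4, 23.5 and 23.3 without (0.26 ± 0.12), and its groups overlapped. NDUFA9 was at 72.2, 69.5 and 70.3 signal with doxycycline and 64.4, 64.2 and 69.3 without (0.10 ± 0.07), with the groups apart. ATP5D, a gene of the F1 part, stood at 0.09.

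Several RKO names need care in how reads were assigned. NDUFV2 was at 27.4, 31.8 and 28.9 signal with doxycycline and 33.5, 27.9 and 32.9 without. Its pseudogene NDUFV2P1 was at 53.3, 53.0 and 51.4 with doxycycline and 62.4, 60.9 and 54.8 without. The pseudogene was lower in every treated library than in any untreated one, while the gene itself overlapped. The antisense gene NDUFA6-AS1 (-0.16) and the read-through ATP5J2-PTCD1 are members by name only, and the strand used in counting is not given in the sources used here.

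**Figure D4:**
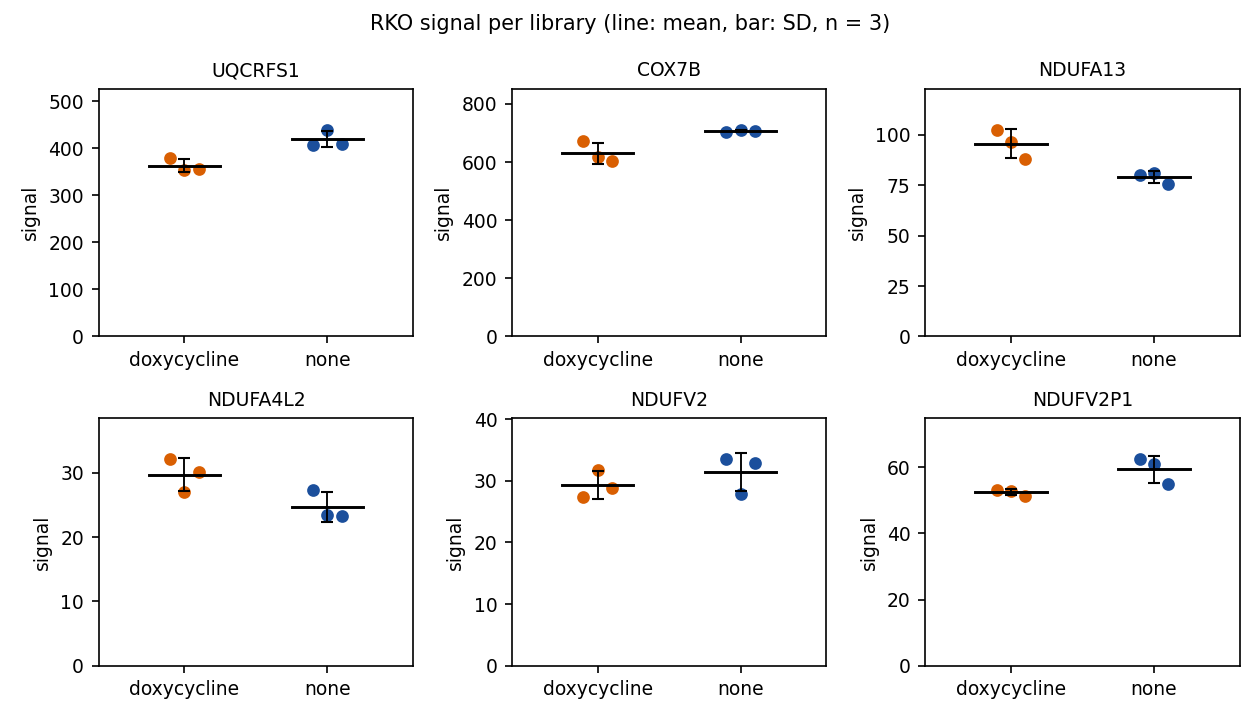
Signal (vertical axes, from 0) of 6 genes in the 3 RKO libraries with doxycycline (orange) and the 3 without (blue), with the mean as a line and the SD as a bar. UQCRFS1, COX7B and NDUFV2P1 lie lower with doxycycline and NDUFA13 lies higher, without overlap, whereas NDUFA4L2 and NDUFV2 overlap.

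Nuclear respiratory genes are known to share promoter sites for NRF1, for ETS factors such as NRF2/GABP, and for YY1. Human promoter windows from RefSeq (GRCh38.p14, 250 bases before to 50 after the start; the table itself was made on hg19) matched 61 of the 74 RKO subunit genes. On either strand, the NRF1 motif (GCGCA, any base, then GCGC) was found in 15 of these, or 24.6%, against 8.58% of 15843 protein-coding windows. CCGGAAG (ETS) was found in 19, or 31.1%, against 14.2%, and AAGATGGCG (YY1) in 7, or 11.5%, against 2.74%. Any of the 3 was found in 34, or 55.7%, against 22.8%. The median GC content of the windows was 61.0% for the subunit genes and 62.7% for the protein-coding genes. The ETS and YY1 letters can overlap by AAG, and a match is a description of letters only. Shown are the windows of the 3 RKO members with the lowest unadjusted p, UQCRFS1 (chr19:29213102-29213401, minus strand), COX7B (chrX:77899218-77899517, plus strand) and NDUFA13 (chr19:19515975-19516274, plus strand), 5′ to 3′, with motif matches in capitals.
UQCRFS1: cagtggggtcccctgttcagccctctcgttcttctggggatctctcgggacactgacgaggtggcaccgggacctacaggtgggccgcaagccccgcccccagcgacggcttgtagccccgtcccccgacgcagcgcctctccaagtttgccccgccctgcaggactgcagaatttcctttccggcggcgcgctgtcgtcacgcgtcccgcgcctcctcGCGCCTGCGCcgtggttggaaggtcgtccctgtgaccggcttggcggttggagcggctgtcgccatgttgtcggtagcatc
COX7B: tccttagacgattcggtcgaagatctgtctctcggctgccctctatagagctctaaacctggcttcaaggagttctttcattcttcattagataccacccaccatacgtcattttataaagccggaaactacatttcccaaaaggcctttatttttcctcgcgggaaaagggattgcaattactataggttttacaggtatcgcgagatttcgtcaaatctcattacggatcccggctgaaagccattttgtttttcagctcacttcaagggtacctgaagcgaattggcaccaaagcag
NDUFA13: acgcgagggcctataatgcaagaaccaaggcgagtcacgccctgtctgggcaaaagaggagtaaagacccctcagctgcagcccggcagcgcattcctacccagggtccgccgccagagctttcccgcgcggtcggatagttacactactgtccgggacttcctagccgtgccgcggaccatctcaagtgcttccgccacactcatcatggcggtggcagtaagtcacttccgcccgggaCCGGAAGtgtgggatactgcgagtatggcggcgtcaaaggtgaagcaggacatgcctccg
The UQCRFS1 window holds an NRF1 match, the NDUFA13 window an ETS match, and the COX7B window none of the 3.

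The members' RKO fold changes went with transcript GC content. Across the 80 genes Spearman's rho was 0.44, and it was also 0.44 across the 13115 genes with a GC content (84.1% of the table); genes of one set of libraries are not independent. Member transcripts ranged from 35.0% to 65.0% GC with a median of 47.9%, near the 48.3% of all genes. NDUFA13 and NDUFA4L2, at 62.01% and 64.6%, were among the richest in GC, and COX7B, at 41.5%, was below the median. With the GC trend removed in each library the members' median was -0.03, 51 of 80 were negative and 0 passed in limma (lowest adjusted p = 0.0874). That step moved several named genes by more than 1.5 times: UQCRB to -0.014, SDHD to -0.045, ATP5C1 to -0.055, ATP5F1 to -0.063, NDUFA4L2 to 0.16 and SDHC to 0.014, against -0.09, -0.10, -0.09, -0.10, 0.26 and -0.03 without it.

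**Figure D5:**
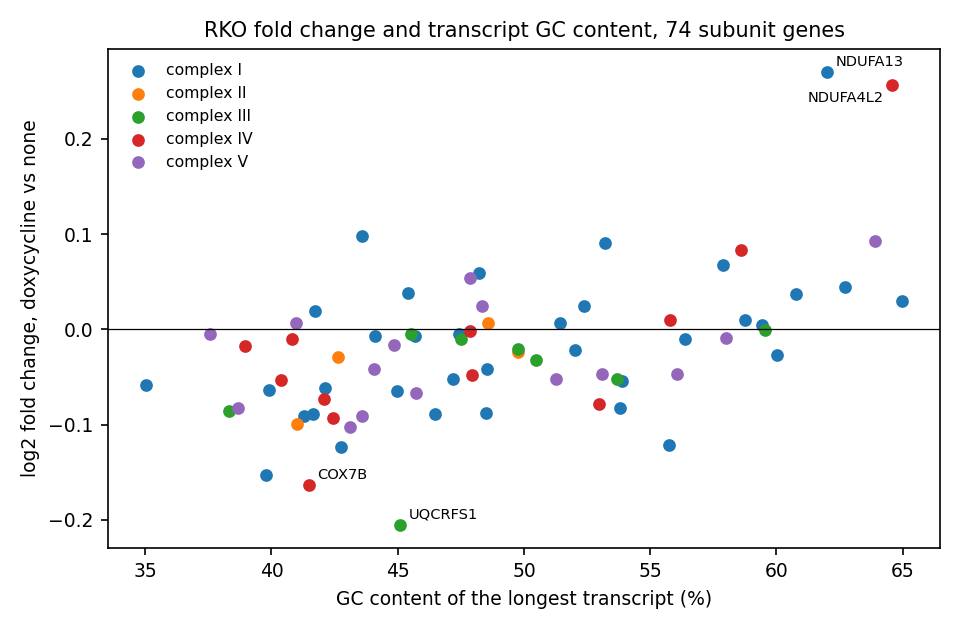
Log2 fold change in RKO cells, doxycycline over none (vertical axis), against the GC content of the longest transcript in percent (horizontal axis) for the 74 subunit genes, coloured by complex. NDUFA13 and NDUFA4L2 lie at the upper right, at 62.01% and 64.6% GC, and COX7B at 41.5% and UQCRFS1 at 45.1% lie at the bottom.

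Other RKO genes of the pathway gave 1 call over all lists, against 1.14% of all genes called in either direction. The lists held 13, 16, 4, 6, 24, 4, 14, 18, 4 and 14 genes tested, in the order given below. Counts of negative genes in these lists stand beside 55.1% negative over all 15590 genes tested. All 13 mRNAs of mitochondrial DNA were positive (median 0.13), whereas 25 of the 80 nuclear members were. The nuclear count depended on scaling: 44, 41 and 43 of the 80 were negative with equal sums, quantile normalization and median centring. MT-ND1 averaged 36629 ± 1517 signal with doxycycline, against 31525 ± 1058 in untreated cells (SD, n = 3 each; log2 fold change 0.22, adjusted p = 0.0490, limma), MT-ND3 stood at 0.17 and MT-ATP6 at 0.28. The MT-ND1 call was lost in limma when any 1 library was left out (adjusted p = 0.0598 to 0.158) and with libraries that share exactly equal values taken as a block (adjusted p = 0.221). Among assembly genes 0 passed: 10 of 16 were negative for complex I (NDUFAF7 -0.18, TIMMDC1 -0.09, TMEM186 0.10), 2 of 4 for complex II (ACN9 -0.07), 3 of 6 for complex III (the Rieske insertion factor gene BCS1L 0.17, UQCC2 0.07, UQCC1 0.10), 16 of 24 for complex IV (SCO2 0.22, LRPPRC -0.07, COX18 -0.11) and 2 of 4 for complex V (ATPAF1 0.07). Of 14 tricarboxylic acid cycle genes 10 were negative, with IDH3B at 769 ± 7.69 signal with doxycycline and 849 ± 1.13 without (-0.14, adjusted p = 0.0785, limma), and OGDH at 0.13.

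Cytochrome, electron transfer flavoprotein and ubiquinone genes, with CYC1 among them, were negative in 13 of 18 (COQ2 -0.14, COQ3 -0.13, PDSS2 -0.13), and 3 of the 4 further subunit and inhibitor genes outside the naming rule were negative (ATPIF1 -0.14, NDUFAB1 -0.08, C14orf2 0.02). Regulators were split, with 7 of 14 negative: GABPB1, a subunit of NRF2, stood at -0.16, the mitochondrial RNA polymerase gene POLRMT at 0.15 and the helicase gene C10orf2 at 0.14.

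Of the 74 member symbols tested in both tables, 47 were negative in both and 0 were positive in both. Another 23 were positive in RKO and negative in colon, and 4 were negative in RKO and positive in colon. Since 55 of 80 members were negative in RKO and 73 of 78 in colon, many would be negative in both without any relation. Spearman's rho between the 2 sets of log2 fold changes was -0.010, across genes that are not independent replicates. NDUFA13 was among the 23, at 0.27 in RKO and -0.20 in colon, where knock-out libraries had 101, 96.8 and 97.8 FPKM of the mouse gene and wild-type libraries 119, 108 and 112 FPKM. In both tables its groups did not overlap, in opposite directions. Uqcrfs1, the most negative RKO member, was at 210, 225 and 216 FPKM in knock-out colon and 249, 219 and 209 FPKM in wild-type colon, with overlapping groups (-0.06). Whether the 2 settings differ was not tested, since the tables were normalized separately.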

How the data were processed

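RNA was measured in 12 libraries of 4 groups, 3 each. The authors' deposited colon table holds FPKM, per the file headers, with 2 decimals. The deposited RKO table carries FPKM and ComBat (a batch adjustment) in its name, but its column sums contradict that unit, so its values are called the authors' signal; its batches are not given in the sources used here. Tools listed in the submitters' processing notes are edgeR, HTSeq, HISAT and Bowtie2, without roles, and the only build is hg19. Per the labels, polyadenylated RNA was selected.

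Each table was fitted separately with limma 3.58.1 (R 4.3.3; moderated test, variance trend) on log2(value + 1), computed here from the deposited values, for genes with a mean of at least 1, with Benjamini-Hochberg adjustment over all genes tested and a threshold of 0.05. Adding 1 understates changes of low genes. The fit was also run on simulated data with independent noise per gene and no position split, so that run does not bear on the colon split. NDUFA4 and NDUFA4L2 were counted in complex IV; antisense, read-through, ATP5S, ATP5SL and COX7A2L names were counted in no complex. Members and lists were chosen with earlier results of these data known.

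Named genes were the targeted gene, the 2 members per complex with the lowest unadjusted p, the 3 most positive and 3 most negative members, core genes, tissue-restricted isoforms, the highest and lowest members, and 3 genes of each other list; further names were chosen after their values were seen. In 1 list, 1 such gene is left out of the text. For GC content, the longest GENCODE transcript of each symbol was used. Alternatives were other pseudocounts, filters and scalings, robust variance, blocks, a position covariate, GC trend removal and leaving out each library.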

Additional observations from a re-analysis of the deposited data

How the results depend on the processing

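The number of called members was 0 in both tables under every other pseudocount (0.1 and 5), filter, scaling, robust variance and GC setting tried, and depended on 1 library in colon. Leaving out each colon library in turn gave 0 to 11 members called lower, 0 called higher, and medians of -0.21 to -0.12; only the fit without wild-type replicate 2 gave calls (11, median -0.21). Under scaling to the same sum, quantile normalization and median centring the colon median was -0.12, -0.11 and -0.13, with 73, 70 and 73 of 78 negative.

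Same-numbered libraries, centred on their group, correlated at 0.081, -0.531 and 0.063 in RKO and -0.453, -0.137 and 0.151 in colon. Whether replicate numbers pair the libraries cannot be decided from these values. A batch adjustment, as in the name of the RKO table, can remove shifts that paired libraries share. With the replicate number as a block 0 members passed in limma in either table, with 6 members at an unadjusted p under 0.05 in RKO and 11 in colon, and medians of -0.02 and -0.15. That block also ended the limma calls of ZNF280C (adjusted p = 0.0991) and MT-ND1 (adjusted p = 0.119); the MT-ND1 call also missed with pseudocount 5 (0.0542), quantile normalization (0.0603) and median centring (0.0598). In RKO, doxycycline replicate 2 shared 310 exactly equal values with untreated replicate 2, and doxycycline replicate 3 shared 526 with untreated replicate 1; blocking on these pairs gave 0 called members (4 at an unadjusted p under 0.05).

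Among single genes, signs turned to negative for Cox6b2 (-0.69), Ndufa4 (-0.17), Cox4i1 (-0.036) and Ndufb11 (-0.070) and to positive for Ndufb4 (0.050), Ndufs1 (0.085), Sdha (0.023), Cox6c (0.026) and Atp5s (0.14) with the position covariate, and for SDHC (0.014) with the GC trend removed. Leaving out single libraries moved NDUFA6-AS1 between -0.40 and 0.079, Cox6b2 between -0.22 and 0.67, and Ndufa4 between -0.0041 and 0.35. The causes were not tested. Read depth is unknown, so no counting error can be given.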
